A study of Mus musculus with 16 samples.

Results

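The expression of 9 genes of the Hedgehog pathway was followed in facial tissue of mouse embryos at E11.5, chosen by name: the ligand *Shh*, the receptor and receptor-level genes *Ptch1*, *Hhip*, *Boc* and *Cdon*, the signal transducer *Smo*, and the transcription factors *Gli1*, *Gli2* and *Gli3*. These are 9 of the 15451 genes with deposited gene values, and all 9 were among the 14630 genes tested over both tissues. They were chosen with earlier results of these data known. The 16 RNA-seq libraries came from 8 embryos, each of which gave 1 mandible library and 1 library of the frontonasal prominence (FNP), which holds the lateral and medial nasal processes. The mutants, embryos 3 to 6, had the genotype *Srf* flox/flox; Wnt1-Cre. Embryos 1 and 7 were *Srf* flox/+; Wnt1-Cre controls, embryo 2 was an *Srf* flox/flox control without Cre, and embryo 8 was an *Srf* flox/+ control without Cre. All 8 embryos therefore carried a floxed *Srf* allele, and 6 of them carried Wnt1-Cre, which recombines in neural crest and in the dorsal neural tube. Surface epithelium, blood, endothelium and mesoderm-derived cells of the same tissue pieces lie outside that lineage and were sequenced with it. The deposited design table puts embryos 6 to 8 in a second litter and embryos 1 to 5 in a first litter, so that the second litter holds 1 mutant and 2 controls.

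Hedgehog ligand binds Ptch1, which otherwise holds Smo inactive, and coreceptors such as Boc and Cdon help to present it. Active Smo acts at the primary cilium to shift Gli2 and Gli3 from repressor towards activator forms, and *Gli1*, *Ptch1* and *Hhip* are widely used as readouts because the pathway induces them. In the embryonic face *Shh* is made by oral and facial epithelium and by the ventral forebrain, while the neighbouring neural crest mesenchyme receives the signal and depends on it for outgrowth of the midface and the jaw.

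The library totals of the gene values lay between 1.02e+07 and 1.12e+07, and depth in reads cannot be taken from them because they were rescaled before deposit. *Srf* itself was at 10.8 to 14.1 TPM in mutant mandibles, against 34.4 to 65.9 TPM in control mandibles, and at 11.8 to 14.7 TPM in mutant FNPs, against 34.7 to 75.2 TPM in control FNPs. The tissue labels held: 7 of 7 mandible identity genes (*Hand1*, *Hand2* and *Dlx* genes) were higher in mandible and 7 of 7 FNP identity genes (*Alx* and *Pax* genes and *Six3* among them) were lower there. TPM are transcript abundances scaled for gene length, so levels of different genes can be set side by side on this scale. Tests were run with limma on log2 of the deposited gene values, with litter in the model and with Benjamini-Hochberg adjustment over all genes tested. A gene was called at an adjusted p of at most 0.05.

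Promoter sequences of 6 of the 9 genes (*Ptch1*, *Hhip*, *Cdon*, *Smo*, *Gli2* and *Gli3*) were matched in RefSeq on GRCm38.p6, as windows of 300 bases from 250 before to 50 after the transcription start. The 250 bases before the start are shown for *Ptch1* (chr13:63565736-63565985, minus strand) and *Hhip* (chr8:80058009-80058258, minus strand), which are both induced by the pathway, and for *Gli2* (chr1:119053620-119053869, minus strand), the only one of the 6 with a match to a Gli motif. Capitals mark that match.
Ptch1: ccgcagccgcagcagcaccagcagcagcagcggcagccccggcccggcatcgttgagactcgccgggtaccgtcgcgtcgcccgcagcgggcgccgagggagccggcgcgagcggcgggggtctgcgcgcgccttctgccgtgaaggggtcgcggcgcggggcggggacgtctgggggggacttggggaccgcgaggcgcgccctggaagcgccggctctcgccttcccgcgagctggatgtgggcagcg
Hhip: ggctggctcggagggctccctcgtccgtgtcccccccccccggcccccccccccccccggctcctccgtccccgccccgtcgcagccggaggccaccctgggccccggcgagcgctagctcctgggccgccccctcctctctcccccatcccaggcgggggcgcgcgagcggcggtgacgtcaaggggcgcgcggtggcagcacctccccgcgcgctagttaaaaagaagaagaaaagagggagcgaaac
Gli2: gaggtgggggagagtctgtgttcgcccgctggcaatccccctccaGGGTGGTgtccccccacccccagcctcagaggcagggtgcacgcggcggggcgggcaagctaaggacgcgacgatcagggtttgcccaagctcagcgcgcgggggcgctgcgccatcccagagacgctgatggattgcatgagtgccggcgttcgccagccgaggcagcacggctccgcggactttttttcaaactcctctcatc
The searched Gli consensus, GACCACCCA or its reverse complement TGGGTGGTC, was in 0 of the 6 windows and in 0.253% of 32851 RefSeq promoters of the same length. Its 7-letter core, ACCACCC or GGGTGGT, which lies within the consensus, was in 1 of 6 windows, that of *Gli2*, from 205 to 199 bases before the start, and in 4.61% of all promoters. The CArG box, the motif that Srf binds, was in 0 of 6 windows and in 1.63% of all promoters. The *Ptch1* window was 76.3% G and C with 47 CpG dinucleotides and that of *Hhip* 73.7% with 30, while that of *Cdon* was 44.7% with 3, against medians of 52.7% and 7 over all promoters. The RefSeq start used for *Ptch1* lies 7863 bases inside the gene as GENCODE draws it, that for *Cdon* 30948 and that for *Gli3* 488 bases inside. These windows therefore belong to internal starts, and all 250 bases before the *Gli3* start lie in annotated exons. All windows leave distant enhancers unread.

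The 9 genes differed widely in TPM, with *Smo* at the top and *Hhip* at the bottom in both tissues. In mandible, *Smo* had a median of 141 TPM and was above every other gene in every library. It was followed by *Ptch1* at 63.2, *Gli1* at 49.0, *Gli3* at 36.3, *Gli2* at 29.3 and *Cdon* at 27.0 TPM, and the ranges of neighbours in this run overlapped. *Boc* at 14.5 and *Shh* at 8.80 TPM came next and overlapped each other, and *Hhip* was lowest at 1.94 TPM. In FNP, *Smo* at 131 TPM was again apart from the rest. The next 6 genes lay close together, with overlapping ranges from *Cdon* at 49.8 through *Gli3* at 42.2, *Ptch1* at 41.7, *Gli1* at 35.8 and *Gli2* at 34.8 to *Boc* at 32.1 TPM. *Shh* at 2.13 and *Hhip* at 1.38 TPM were far below them and overlapped each other. The order of the middle genes thus differed between the tissues, with *Ptch1* and *Gli1* leading in mandible and *Cdon* leading in FNP.

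**Figure D1:**
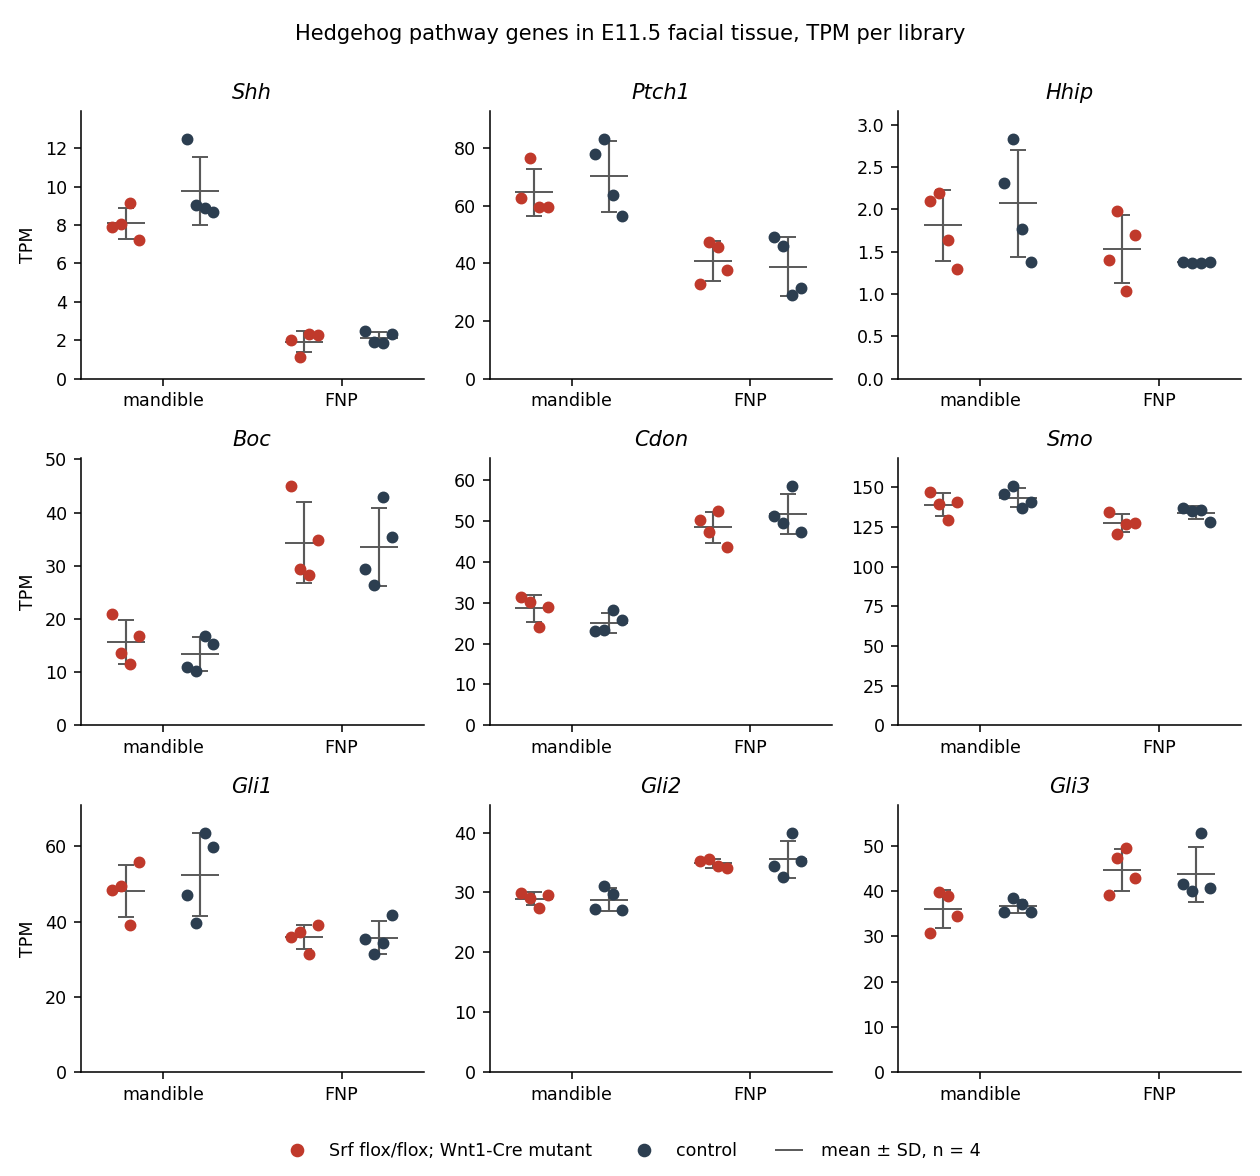
TPM of the 9 Hedgehog pathway genes in each of the 16 libraries, with mandible to the left of FNP and mutants (red) to the left of controls (dark); horizontal bars give mean ± SD of 4 libraries. *Shh* lies between 7.21 and 12.5 TPM in mandible and between 1.15 and 2.47 TPM in FNP, while mutant and control points of every gene overlap within each tissue.

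Mandible was compared with FNP to see how the RNA levels of the pathway genes differ between the tissues. All 9 genes passed the test, 5 higher in mandible (*Shh*, *Ptch1*, *Gli1*, *Hhip* and *Smo*) and 4 lower (*Boc*, *Cdon*, *Gli2* and *Gli3*). Over all genes tested, 29.7% were called, 11.9% higher and 17.8% lower. The median size of the log2 difference was 0.50 over the 9 genes and 0.12 over all genes tested. Because the 9 were chosen with earlier results known, these shares and medians are a description and not a test of the set. The mandible and FNP libraries did not overlap at all for 5 of the 9 genes (*Shh*, *Ptch1*, *Gli2*, *Boc* and *Cdon*), beside 8.96% of all genes tested. Because whole tissue pieces were sequenced, fewer cells of a type and less RNA per cell cannot be told apart in any of these values.

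The ligand showed the largest difference of the 9 genes. *Shh* (GRCm38 chr5:28456815-28467256, minus strand) ranged from 7.21 to 12.5 TPM in the 8 mandible libraries, with a median of 8.80 TPM, against 1.15 to 2.47 TPM in the 8 FNP libraries, with a median of 2.13 TPM. The lowest mandible was well above the highest FNP. *Shh* was 4.41-fold higher in mandible, a log2 difference of 2.14 ± 0.13 (SE) with a limma adjusted p of 1.58e-09, and within single embryos the mandible to FNP ratio of TPM ran from 3.21 in embryo 6 to 7.02 in embryo 4. Among mutant embryos alone the log2 difference was 2.09, and among control embryos alone it was 2.20. *Ihh* and *Dhh*, which encode the other Hedgehog ligands of mammals, were near the floor, with medians of 0.0544 and 0.124 TPM in mandible and of 0.0729 and 0.0864 TPM in FNP. Neither gene had a deposited gene value, so neither was tested.

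Of the markers for tissues that make *Shh*, the epithelial ones were mixed by gene, and the forebrain and nasal placode ones were lower in mandible. Over all genes tested, 11.9% were higher in mandible and 17.8% lower, to be set beside the counts of this paragraph. The summed TPM of 15 epithelial markers was 311 to 369 in mandible and 410 to 503 in FNP, with 5 of the 15 genes higher in mandible (*Krt5*, *Krt14*, *Krt15* and *Trp63* among them) and 7 lower (*Epcam*, *Cdh1*, *Krt8*, *Krt18*, *Cldn6*, *Esrp1* and *Grhl2*). *Foxa2*, which marks foregut endoderm and is itself on the list of reported targets, was at 1.09 to 2.81 TPM in mandible and at up to 0.311 TPM in FNP, was not tested, and was named after its values were seen. The sum of 12 forebrain and nasal placode markers was 16.8 to 37.7 TPM in mandible and 147 to 251 TPM in FNP, and 10 of the 10 that could be tested were lower in mandible. The sums of 9 neural crest mesenchyme markers overlapped, at 1491 to 1752 TPM in mandible and 1398 to 2087 TPM in FNP, with 4 of the 9 genes higher in mandible and 4 lower. The part of tissue composition in the difference in *Shh* was not tested.

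Among the receptors, *Ptch1* moved with the ligand. *Ptch1* (chr13:63508328-63573598, minus strand), which represses Smo and is itself induced by the pathway, was at 56.5 to 83.1 TPM in mandible, with a median of 63.2, against 28.9 to 49.3 TPM in FNP, with a median of 41.7. No mandible fell into the FNP range. The log2 difference was 0.78 ± 0.09 (SE), or 1.71-fold, with a limma adjusted p of 2.61e-06, and it had the same sign in 8 of 8 embryos. *Hhip* (chr8:79965851-80058006, minus strand), a membrane protein that sequesters ligand, was far lower in level at 1.30 to 2.83 TPM in mandible, against 1.03 to 1.98 TPM in FNP. These ranges overlapped, the log2 difference was 0.40 ± 0.15 (SE) and the limma adjusted p of 0.0494 was barely past the threshold. It was higher in mandible in 7 of 8 embryos, with embryo 6 the exception at a ratio of 0.766. The call for *Hhip* was lost under 11 of 19 alternative settings. In the second litter alone the log2 difference was 0.00 with a limma adjusted p of 0.992, against 0.64 and 0.0209 in the first litter alone.

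The coreceptors ran the other way. *Boc* (chr16:44485049-44558897, minus strand), a ligand-binding cell surface protein of the immunoglobulin superfamily, was at 10.3 to 21.0 TPM in mandible, with a median of 14.5, against 26.4 to 44.9 TPM in FNP, with a median of 32.1. Every mandible was below every FNP. The log2 difference of −1.23 ± 0.12 (SE), with a limma adjusted p of 6.20e-07, was the largest fall among the 9 genes. Its close relative *Cdon* (chr9:35421128-35507652, plus strand) was at 23.1 to 31.5 TPM in mandible, with a median of 27.0, against 43.6 to 58.4 TPM in FNP, with a median of 49.8. The ranges were again separate, with a log2 difference of −0.90 ± 0.08 (SE) and a limma adjusted p of 6.25e-08. Both were lower in mandible in 8 of 8 embryos, *Boc* by TPM ratios of 0.376 to 0.484 and *Cdon* by ratios of 0.450 to 0.663.

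*Smo* and the *Gli* genes differed less. *Smo* (chr6:29735503-29761365, plus strand), the membrane protein that Ptch1 controls, was at 129 to 151 TPM in mandible, against 121 to 137 TPM in FNP. Its ranges overlapped, and its log2 difference of 0.11 ± 0.03 (SE; limma adjusted p = 0.0130) was the smallest of the 9, although the mandible value was the higher one in 8 of 8 embryos. *Gli1* (chr10:127329882-127341974, minus strand), a transcriptional activator induced by the pathway, was at 39.0 to 63.5 TPM in mandible, with a median of 49.0, against 31.4 to 41.9 TPM in FNP, with a median of 35.8. The first litter mandibles of embryos 2 and 5 reached into the FNP range, but each embryo's mandible was above its own FNP. The log2 difference was 0.50 ± 0.07 (SE), with a limma adjusted p of 4.59e-05. *Gli2* (chr1:118834132-119053619, minus strand), the main activator, was at 27.2 to 31.0 TPM in mandible, against 32.6 to 39.9 TPM in FNP, a log2 difference of −0.28 ± 0.05 (SE) with a limma adjusted p of 3.49e-04. *Gli3* (chr13:15463235-15730026, plus strand), the main repressor, was at 30.8 to 39.9 TPM in mandible, against 39.2 to 52.8 TPM in FNP, a log2 difference of −0.28 ± 0.07 (SE) with a limma adjusted p of 0.00464. *Gli2* ranges were separate and *Gli3* ranges met at their edges, and both genes were lower in mandible in 8 of 8 embryos. RNA levels of *Gli2* and *Gli3* say nothing of the share of each protein in its activator or repressor form.

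**Figure D2:**
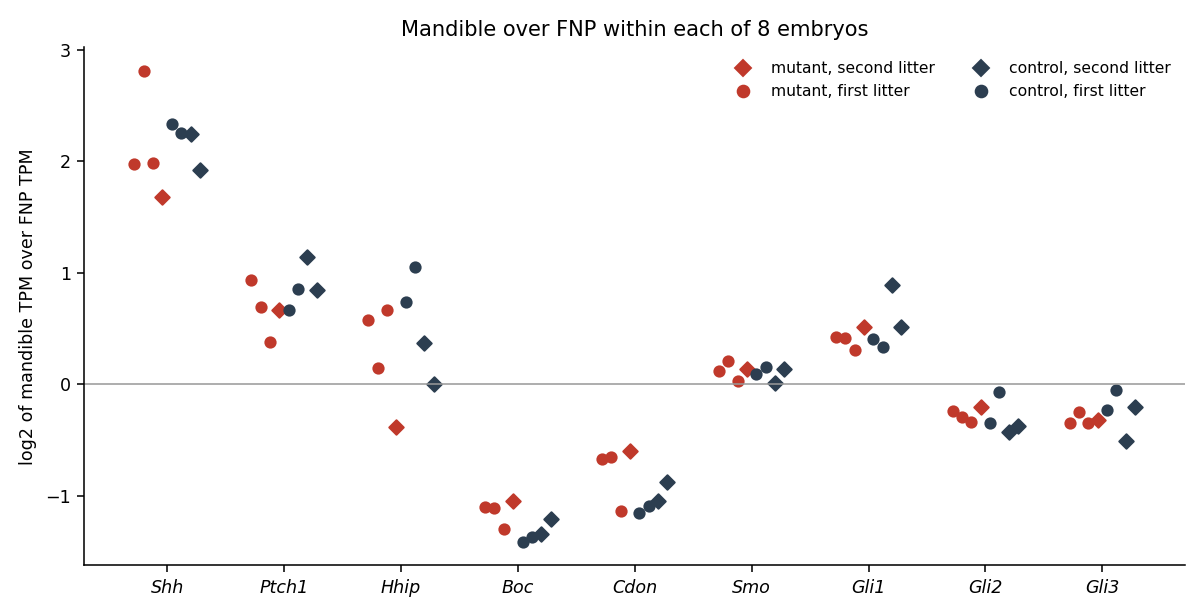
Log2 of mandible TPM over FNP TPM within each of the 8 embryos for the 9 genes, with mutants (red) to the left of controls (dark), the second litter as diamonds and the first litter as circles. All points of *Shh*, *Ptch1*, *Smo* and *Gli1* lie above 0 and all points of *Boc*, *Cdon*, *Gli2* and *Gli3* below 0, while *Hhip* has 7 points above 0 and 1, embryo 6, below.

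Other genes of the pathway were read from 5 lists of 113 genes in all. These lists too were chosen with earlier results of these data known, so their counts beside all genes are descriptive. Of 7 other receptor-level genes, 2 were higher in mandible and 3 lower, beside 11.9% higher and 17.8% lower over all genes tested. *Gas1*, the third ligand coreceptor, was at 125 to 164 TPM in mandible, against 154 to 217 TPM in FNP (log2 difference −0.32 ± 0.08 SE, limma adjusted p = 0.00625), and thus followed *Boc* and *Cdon*. *Gpc3*, a glypican that competes for ligand, was higher by 1.15, whereas *Lrp2* and *Ptchd1* were lower in mandible, at log2 differences of −1.47 and −2.74. Both *Lrp2* and *Ptchd1* were scarce, with medians of 0.448 and 0.298 TPM in mandible and of 1.26 and 2.02 TPM in FNP. *Lrp2* is a receptor of the forebrain neuroepithelium. The joint list of forebrain and nasal placode markers was lower in mandible too, and its part in the *Lrp2* difference was not tested.

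In the list for ligand production and release, 1 of the 4 tested genes was higher in mandible and 2 lower, beside 11.9% and 17.8% of all genes. *Disp1*, which exports lipid-modified ligand from the cell, was higher by 0.29, while *Hhat*, the enzyme that adds palmitate to the ligand, and *Scube3*, a secreted carrier, were lower at −0.44 and −0.48. Between Smo and the Gli proteins, 3 of 25 genes were higher and 3 lower, against the 29.7% called over all genes. The main cytoplasmic inhibitor *Sufu* had log2 difference −0.01 (limma adjusted p = 0.901) and the ciliary kinesin *Kif7* 0.05 (limma adjusted p = 0.387). Those called were *Spop* at 0.24 and *Ulk3* at 0.37, which encode a ubiquitin ligase adaptor and a kinase that act on Gli proteins, *Evc* at 0.19, whose product works with Smo at the cilium, *Prkar1a* at −0.09, a regulatory subunit of protein kinase A, and *Zic1* and *Zic2* at −3.48 and −3.12, which are forebrain-expressed zinc finger genes with medians of 0.106 and 0.291 TPM in mandible and of 1.69 and 1.87 TPM in FNP. *Prkar1a* was named after its value was seen. Of 37 genes of ciliary transport and the transition zone, 3 were higher and 6 lower, again beside 11.9% and 17.8% of all genes. *Ift57* at 0.31 and *C2cd3* at 0.21 were higher, and *Bbs4* at −0.39, *Ofd1* at −0.26 and *Kif3b* at −0.22 were lower.

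Of 31 tested genes reported elsewhere as Hedgehog targets, 14 were higher in mandible and 7 lower, beside 11.9% and 17.8% of all genes tested. Their median log2 difference was 0.25, against 0.00 over all genes tested. Because the list was chosen with earlier results known, its excess over all genes is a description and not a test. Those with the smallest adjusted p among the higher ones were *Igf2*, a growth factor, at 2.31, *Osr1*, a transcription factor of jaw and tongue mesenchyme, at 3.48, and *Mycn*, a driver of proliferation, at 0.87. *Tbx2* at −0.68 and *Olig2* at −6.14 were lower. Some mesenchymal forkhead genes that respond to Hedgehog signal in the face, named here after their values were seen, were split. *Foxd2* and *Foxl1* of the same list are not given here. *Foxf1* was at 36.5 to 51.6 TPM in mandible, against 17.5 to 28.7 TPM in FNP (log2 difference 0.84), and *Foxf2* at 29.1 to 45.7 TPM in mandible, against 9.05 to 18.8 TPM in FNP (log2 difference 1.45), so both were higher without overlap. Over all genes tested, 8.96% separated the tissues in this way. *Foxc1* was lower at −1.77, and *Foxd1* at 0.11 and *Foxc2* at 0.34 did not pass the test (limma adjusted p = 0.605 and 0.337). Many of these genes also mark one tissue by position, as *Osr1* and *Olig2* do, and the part of Hedgehog signal in their differences was not tested.

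**Figure D3:**
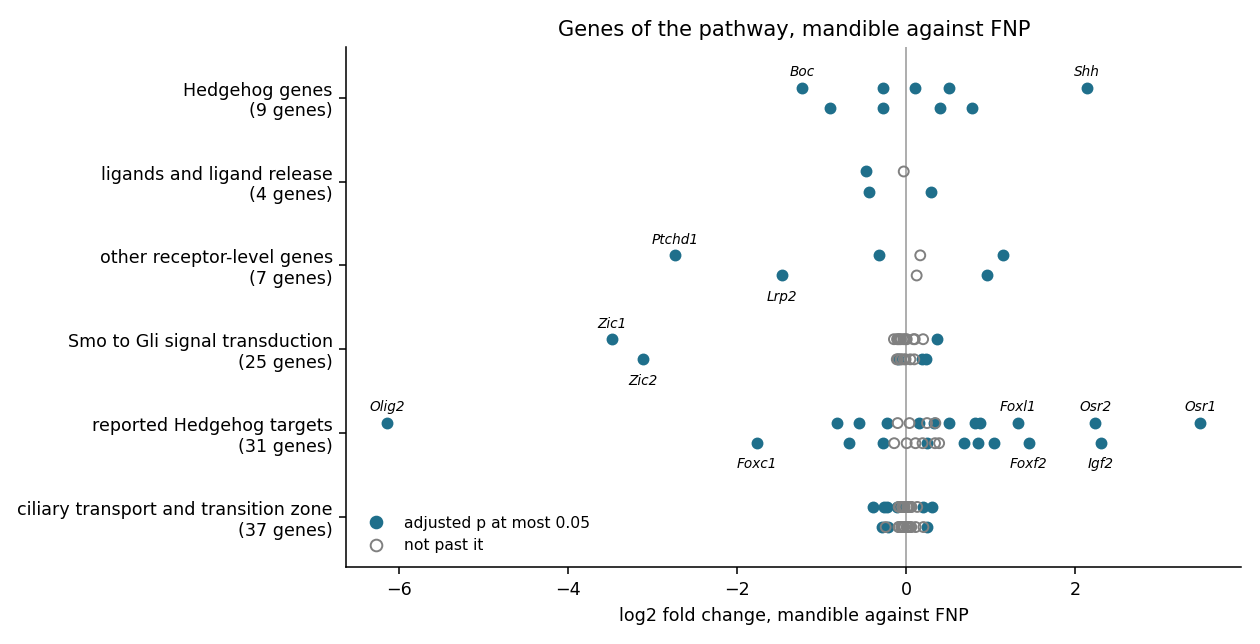
Log2 fold change of mandible against FNP for the 9 Hedgehog genes and the tested genes of 5 pathway lists, 1 point per gene; filled points passed an adjusted p of 0.05, and the called genes farthest from 0 are named. *Shh* at 2.14 stands at the right end of the top line. The transduction and cilium lines have medians of −0.03 and −0.02, with *Zic1* at −3.48 and *Zic2* at −3.12 far to the left on the transduction line.

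Mutants were compared with controls to ask whether loss of *Srf* from neural crest moved the pathway, and none of the 9 genes was called. With limma over both tissues, 0 of 9 passed, beside 1.33% of all genes, and 0 of 9 had an unadjusted p of at most 0.05, beside 2548 of 14630 genes. The count was also 0 of 9 in mandible alone, beside 0.1% of all genes, with 2 of the 9 and 1008 of 14004 genes at an unadjusted p of at most 0.05. In FNP alone it was 0 of 9, beside 0.106%, with 0 of the 9 and 1943 of 14197 genes at that level. In neither tissue did the 4 mutant and 4 control libraries of any of the 9 genes separate, where 2.33% of all genes separated in mandible and 3.18% in FNP. The median size of the log2 difference over both tissues was 0.07 for the 9 genes and 0.09 for all genes tested. In mandible alone it was 0.19 for the 9 genes and 0.09 for all genes, and in FNP alone 0.06 for the 9 genes and 0.10 for all genes.

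The intervals give the size of change that stays possible under each fit. Those over both tissues count the 2 libraries of an embryo as independent, although genotype varies only between embryos. The libraries of an embryo were correlated (consensus correlation 0.118), so these intervals may be too narrow. *Shh* was at 7.92, 8.04, 9.17 and 7.21 TPM in the mandibles of mutant embryos 3 to 6, against 12.5, 9.06, 8.90 and 8.70 TPM in those of control embryos 1, 2, 7 and 8. It was at 2.02, 1.15, 2.31 and 2.25 TPM in the mutant FNPs, against 2.47, 1.90, 1.88 and 2.30 TPM in the control FNPs. In mandible 3 of the 4 mutants were below every control and embryo 5 was inside the control range, while in FNP the groups were mixed. The log2 difference was −0.34 ± 0.11 (SE) in mandible (95% interval −0.59 to −0.08, limma adjusted p = 0.647) and −0.14 ± 0.24 in FNP (adjusted p = 0.833). Over both tissues it was −0.24, with a 95% interval of −0.53 to 0.05.

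Of the induced genes, *Ptch1* and *Gli1* had narrower intervals than *Shh* over both tissues, and *Hhip* had a wider one. *Ptch1* was at 62.7, 76.8, 59.7 and 59.8 TPM in mutant mandibles, against 78.1, 83.1, 63.8 and 56.5 TPM in control mandibles, and at 32.7, 47.5, 45.8 and 37.6 TPM in mutant FNPs, against 49.3, 46.0, 28.9 and 31.5 TPM in control FNPs. The mutants lay inside the control range in every case, and the log2 difference over both tissues was −0.11 (95% interval −0.31 to 0.08, limma adjusted p = 0.568). *Gli1* was at 48.3, 49.6, 39.0 and 55.9 TPM in mutant mandibles, against 47.1, 39.7, 63.5 and 59.8 TPM in control mandibles, and at 36.1, 37.3, 31.4 and 39.1 TPM in mutant FNPs, against 35.5, 31.4, 34.3 and 41.9 TPM in control FNPs. These overlapped almost fully, with a log2 difference of 0.03 and a 95% interval of −0.13 to 0.19 (limma adjusted p = 0.886). *Hhip* had log2 difference −0.11 over both tissues (95% interval −0.43 to 0.21), the widest interval of the 9, and −0.35 in mandible (95% interval −0.66 to −0.03, limma adjusted p = 0.692).

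None of the remaining 5 genes passed the test either. *Smo* had the smallest adjusted p of the 9, with a log2 difference of −0.07, a 95% interval of −0.14 to 0.00 and a limma adjusted p of 0.302. *Gli2* and *Gli3* were at 0.01 and −0.01, with 95% intervals of −0.10 to 0.12 and −0.15 to 0.14. *Cdon* was at 0.05 (95% interval −0.11 to 0.21) and *Boc* at 0.20 (95% interval −0.07 to 0.47). The *Boc* values show how 1 embryo weighs on these means: mutants had 21.0, 13.6, 11.52 and 16.9 TPM in mandible, against 11.03, 10.3, 16.9 and 15.4 TPM in controls, and 44.9, 29.4, 28.3 and 34.8 TPM in FNP, against 29.3, 26.4, 42.9 and 35.5 TPM in controls. Mutant embryo 3 was the highest of 8 in both tissues.

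**Figure D4:**
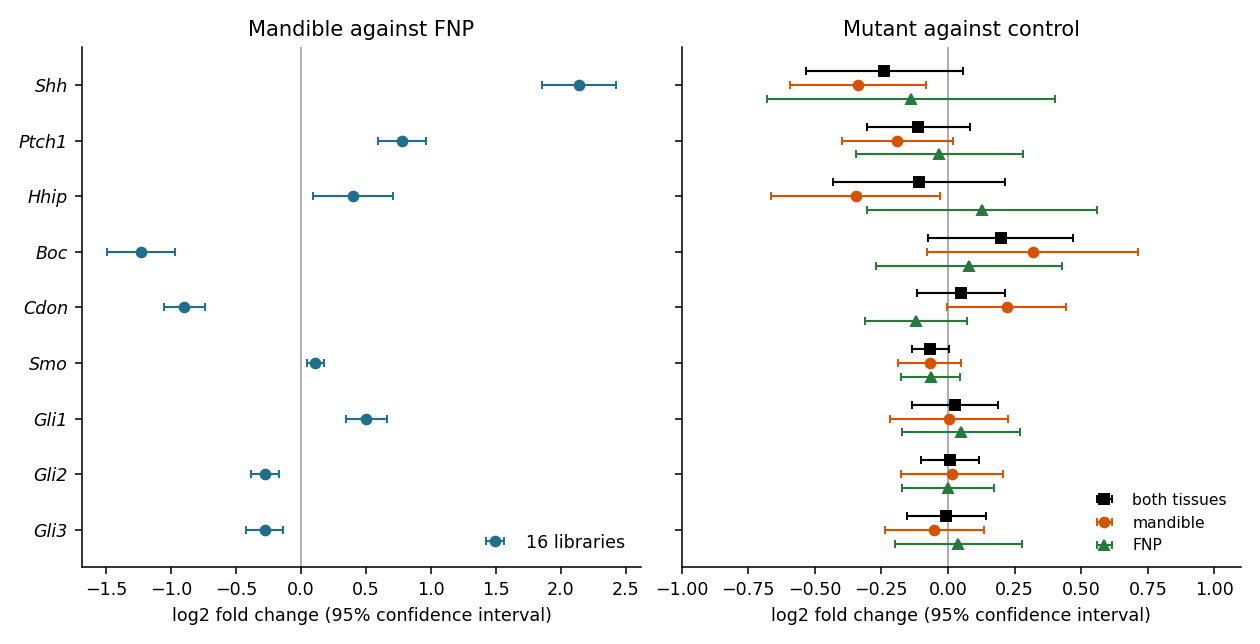
Log2 fold changes with 95% confidence intervals for the 9 genes, mandible against FNP over 16 libraries on the left and mutant against control on the right, over both tissues (squares), in mandible (circles) and in FNP (triangles). On the left every interval lies to one side of 0, and on the right every interval over both tissues reaches across 0, with *Smo* touching it at 0.00.

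The genotype effect was also compared between the tissues. The interaction term called 0 of 9 genes and 0% of all genes tested, with 1 of the 9, *Cdon*, and 638 of 14630 genes at an unadjusted p of at most 0.05. *Cdon* was at 31.5, 30.02, 23.9 and 28.9 TPM in mutant mandibles, against 23.1, 23.2, 28.3 and 25.8 TPM in control mandibles, and at 50.1, 47.2, 52.4 and 43.6 TPM in mutant FNPs, against 51.2, 49.5, 58.4 and 47.2 TPM in control FNPs. In all, 3 of 4 mutant mandibles were above every control mandible, while mutant and control FNPs were mixed. The log2 interaction was 0.29 ± 0.14 (SE), with a 95% interval of 0.00 to 0.58 and a limma adjusted p of 0.999. Among the other pathway lists, the mutant and control groups over both tissues differed for 1 gene, *Mycn*, of 31 reported targets and for 0 of the tested genes in each of the other 4 lists. Of all genes tested, 1.33% were called. *Mycn* was at 77.6 to 88.6 TPM in mutant mandibles, against 88.7 to 106 TPM in control mandibles, and at 43.2 to 49.5 TPM in mutant FNPs, against 43.4 to 60.6 TPM in control FNPs. It was lower by a log2 difference of −0.24 ± 0.06 (SE; limma adjusted p = 0.0459). That call was lost under 13 of 19 alternative settings, and the log2 difference ran from −0.33 to −0.08 over the 19. With embryo as a block it was −0.24 with a limma adjusted p of 0.0716, among the lost calls. *Gas1* at 0.01, *Sufu* at −0.05 and *Kif7* at 0.03 did not pass (limma adjusted p = 0.976, 0.473 and 0.746). The summed erythroid markers were 14896 to 26325 TPM in mutant FNPs and 13064 to 16946 TPM in control FNPs. In mandible they were 11597 to 23829 TPM in mutants and 13340 to 18151 TPM in controls, with the lower median in mutants. Over both tissues 0 of 8 erythroid genes were called, and 1 of 6 tested macrophage markers was higher in mutants. The macrophage sums were 19.05 to 22.23 TPM in mutant mandibles and 15.76 to 18.04 TPM in control mandibles, and overlapped in FNP. The part of erythroid cells and macrophages in the values was not tested.

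Litter, the batch term of the model, moved 2 of the 9 genes, in opposite directions, beside 26.1% of all genes (10.9% higher and 15.2% lower in the second litter). The litter fit counts the 2 libraries of an embryo as independent, although litter varies only between embryos. Its SE and p-values may therefore be too small. With embryo as a block, 2 of the 9 and 3254 of 14630 genes were called. *Ptch1* was at 59.8, 63.8 and 56.5 TPM in the second litter's mandibles (embryos 6 to 8), against 78.1, 83.1, 62.7, 76.8 and 59.7 TPM in the first litter's (embryos 1 to 5). In FNP it was at 37.6, 28.9 and 31.5 TPM in the second litter, against 49.3, 46.0, 32.7, 47.5 and 45.8 TPM in the first. In both tissues embryo 3 stood with the second litter, as did embryo 5 in mandible. The log2 difference of second over first litter was −0.38 ± 0.09 (SE; limma adjusted p = 0.00769). *Gli1* went the other way, at 55.9, 63.5 and 59.8 TPM in the second litter's mandibles, against 47.1, 39.7, 48.3, 49.6 and 39.0 TPM in the first litter's. In FNP it was at 39.1, 34.3 and 41.9 TPM in the second litter, against 35.5, 31.4, 36.1, 37.3 and 31.4 TPM in the first. The mandibles separated by litter and the FNPs overlapped. The log2 difference was 0.29 ± 0.08 (SE; limma adjusted p = 0.0138), and without embryo 2 or embryo 8 it was 0.22 and 0.25, no longer past the threshold (adjusted p = 0.0819 and 0.0787). *Ptch1* and *Gli1*, both induced by the pathway, differed here in opposite directions, but 2 of 9 called is no excess over the 26.1% of all genes.

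*Boc* did not pass with litter (log2 difference 0.34 ± 0.13 SE, limma adjusted p = 0.0719). It was at 16.9, 16.9 and 15.4 TPM in the second litter's mandibles, against 11.03, 10.3, 21.0, 13.6 and 11.52 TPM in the first litter's, so that embryo 3 was the one member of the first litter above the second. Without embryo 3 the log2 difference was 0.44 with an adjusted p of 2.11e-04, and among control embryos alone it was 0.51 with an adjusted p of 0.00179. *Shh*, *Smo*, *Gli2*, *Gli3* and *Cdon* had log2 litter differences between −0.05 and 0.03, and *Hhip* −0.27 (adjusted p = 0.215). Whether the tissue difference itself varied by litter was tested in a further limma fit, chosen after seeing the data, which called 0 of 9 genes and 0% of all genes, with 1 of the 9 and 781 of 14630 genes at an unadjusted p of at most 0.05. *Hhip* had the largest term, −0.63 ± 0.27 (SE), with a limma adjusted p of 0.867. Of the tissue markers, 1 of 7 mandible identity genes was lower in the second litter, beside 15.2% of all genes, and 0 of 7 FNP identity genes passed. In mandibles the sums separated by litter: mandible identity genes summed to 631 to 678 TPM in the second litter's mandibles, against 699 to 785 TPM in the first litter's, and FNP identity genes to 190 to 221 TPM, against 155 to 188 TPM. In FNPs both sums overlapped, mandible identity genes at 85.2 to 92.7 TPM in the second litter, against 76.0 to 91.5 TPM in the first, and FNP identity genes at 658 to 730 TPM, against 706 to 749 TPM. The part of these sums in the litter differences was not tested.

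**Figure D5:**
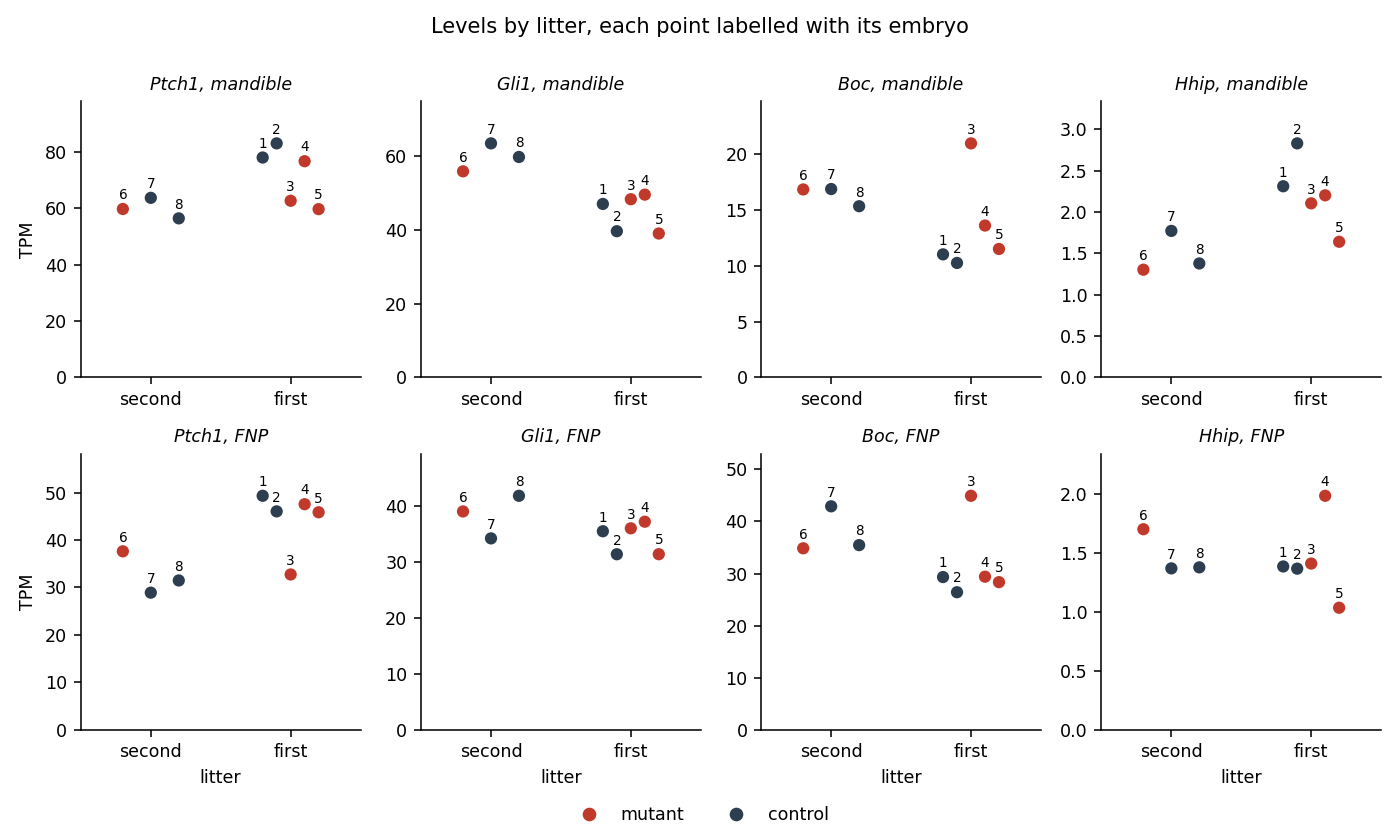
TPM of *Ptch1*, *Gli1*, *Boc* and *Hhip* in mandible (top) and FNP (bottom), with the second litter to the left of the first, mutants in red and controls dark, and each point labelled with its embryo number. *Gli1* in mandible separates the litters, at 55.9 to 63.5 TPM in the second and 39.0 to 49.6 TPM in the first, and embryo 3 is the highest *Boc* value in both tissues.

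How the 9 genes varied together is given as a description over the 16 libraries, which share embryos and tissues. Over all libraries the log2 values of *Shh* and *Ptch1* had a Pearson r of 0.82, *Shh* and *Gli1* 0.75, and *Boc* and *Cdon* 0.94. These follow the tissue split. With the mean of each tissue taken away, *Shh* kept little relation with *Ptch1* (r = 0.03) or *Gli1* (r = −0.12), and *Ptch1* and *Gli1* had r = −0.38. *Boc* and *Cdon* still varied together (r = 0.65), *Boc* and *Gli1* had r = 0.52, and *Boc* and *Ptch1* varied in opposite directions (r = −0.71). Litter and genotype means were not taken away, and *Ptch1*, *Gli1* and *Boc* had log2 litter differences of −0.38, 0.29 and 0.34. The part of litter in these r values, and in the within-tissue lists below, was not tested. The genes outside the 9 whose values ran most like *Shh* over all libraries were *Ndn*, *Nnat*, *Lmo4*, *Rtl1* and *Gm49394* (r = 0.98 to 0.97). Those most like *Ptch1* were *Pbx3*, *Mest*, *Fndc3c1*, *Fign* and *Lrig3* (0.96 to 0.93), and those most like *Gli1* included *Tnc*, *Trpc5*, *Mfhas1* and *Ewsr1* (0.94 to 0.92). Within tissues the nearest genes were *Med23*, *Usp16*, *Nnat*, *Pik3r4* and *Tmem38a* for *Shh* (0.76 to 0.71), *Atp2b1*, *Zswim5*, *Mapk6* and *Cecr2* among others for *Ptch1* (0.91 to 0.89), and *Bmp3*, *Gpr162*, *Pcdhga5*, *Gnao1* and *Foxk1* for *Gli1* (0.89 to 0.87). *Nnat* was in both lists of *Shh*.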

How the data were processed

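RNA from 8 FNP and 8 mandible samples of E11.5 embryos was sequenced by the authors, who quantified transcripts with Salmon 1.5.0 against mm10 and passed them to sleuth 0.30.0-4 in gene mode. The deposited gene values are a signal: estimated counts per gene that the authors rescaled library by library, from which whole reads were not recovered. The deposited TPM are likewise rescaled, so that their sums differ between libraries. The authors' comparison columns (effect, SE, p, q and fold) were not used, and the number of per-sample columns left unused is 0. Litter came from the deposited design table.

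For each comparison limma 3.58.1 (R 4.3.3, variance trend) was fitted to log2(value + 0.5) of all genes that reached 10 in 4 or more libraries, so fold changes of low genes are understated, and p-values were adjusted by Benjamini-Hochberg over all of them. The mutant effect was fitted over both tissues with litter and tissue, and in each tissue with litter; the tissue effect with litter and genotype; the litter effect with genotype and tissue. The fits were tested on simulated data. Each embryo is a separate animal that gave both its libraries. Deviations of an embryo's 2 libraries from their group means correlated with r = 0.099 to 0.234, and each FNP library correlated best with its own mandible library in 8 of 8 embryos, so embryo was used as a block in an alternative. Other alternatives changed the pseudocount, the filter, the scaling, the variance prior, the litter term, the values (TPM), the controls, the litters and the embryos used.

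The 9 genes and all lists were chosen with earlier results of these data known. Named beside the 9 are *Ihh*, *Dhh*, *Gas1*, *Sufu* and *Kif7*, up to 5 called genes per list with the smallest adjusted p between the tissues, and up to 5 called between genotypes. A few genes that this rule or the lists name are not reported here. Gene coordinates are from GENCODE vM21 on GRCm38 and promoters from RefSeq on GRCm38.p6. Strand handling is not given in the sources used here. Exons of *Shh*, *Hhip*, *Gli1* and *Gli3* overlap genes on the opposite strand, of which *Arhgap9*, beside *Gli1*, was the one with listed TPM, at up to 2.91 TPM. Reads of such partners cannot be told apart.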

Additional observations from a re-analysis of the deposited data

Results flagged for a closer look

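Among 36 sets of 4 libraries (9 genes in mutant and control libraries of each tissue), 2 held a library far from the other 3, where chance gives about 1 in 20. *Shh* was at 12.5 TPM in the mandible of control embryo 1, above 8.70 to 9.06 TPM in the other 3 control mandibles. *Gli3* was at 52.8 TPM in the FNP of control embryo 7, above 40.0 to 41.5 TPM in the other 3 control FNPs. Neither library decides a call: *Shh* and *Gli3* were not called between genotypes with all embryos or with each embryo left out in turn.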

How the results depend on the processing

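The number of Hedgehog genes called was 0 for mutant against control under all 19 alternatives over both tissues and all 17 in each tissue, 0 for the genotype interaction under all 18, and 0 for the tissue difference between litters under all 14. The uncalled differences were small enough to change sign in 23 of 171 gene and setting pairs over both tissues, 25 of 153 in FNP and 12 of 153 in mandible. Between mandible and FNP the count was 5 in the second litter only and between 6 and 9 otherwise, 8 to 9 with each embryo left out. *Shh*, *Ptch1*, *Gli1*, *Boc* and *Cdon* were called under all 19 alternatives, *Gli2* lost its call in 1, *Smo* and *Gli3* in 4 each and *Hhip* in 11, and none of the 9 changed sign. Mandible against FNP within mutant or control embryos alone, the litter effect in control embryos alone and the tissue by litter fit were chosen after seeing the data. Between litters the count was 1 without replicate 2 or replicate 8, and 1 to 3 with each embryo left out. *Ptch1* kept its litter call under all 15 alternatives, *Gli1* lost it in 2 and *Boc* gained one in 4, among them equal library totals (0.40, adjusted p = 0.0334). With embryo as a replicate block the counts were 0 between genotypes, 9 between tissues, 0 for the interaction and 2 between litters, so the block changed no call of the 9, while *Mycn* lost its genotype call (adjusted p = 0.0716). The calls over all genes moved more. Between genotypes over both tissues they ran from 12 (second litter only) to 367 (without embryo 6) around 195, and with the block they were 113. They ran from 9 to 28 around 15 in FNP and from 7 to 17 around 14 in mandible. Between tissues they ran from 1884 to 4640 around 4352, and between litters from 2329 to 4436 around 3824. The limits are 4 embryos per genotype, controls of 3 genotypes, 3 embryos in the second litter and whole tissue pieces, with values that do not carry the depth in reads.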
